A study of Mus musculus with 4 samples.

Results

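Interferon regulatory factors (IRFs) and signal transducers and activators of transcription (STATs) were followed as 9 genes, Irf1, Irf2, Irf3, Irf5, Irf7, Irf8, Irf9, Stat2 and Stat3, found by name among the 22369 genes of the expression table. They were selected on family name with their normalized values in the V118M and WT libraries already known, so their differences between groups are given as a description, without a test. The data are bulk RNA sequencing of OG2MEF cells, mouse embryonic fibroblasts with an Oct4-driven fluorescent reporter, on day 9 of reprogramming toward pluripotency. The 4 libraries were labelled SOX17-V118M (2 libraries), a missense form of the endodermal factor SOX17, and SOX17 WT (2 libraries), and the comparison asked how the mutant form alters expression during reprogramming. Per the protocol in the labels, cells received pMX retroviruses for Sox2 and Klf4 with OCT4, SOX17, SOX17-V118M or GFP, in a medium with serum, LIF and vitamin C after the second transduction. The protocol does not say which mix each library received, nor whether replicates were separate cultures or animals. The expression values are whole-number scores on a scale made nearly identical in the 4 libraries, so they have no counting depth.

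Type I interferons act through JAK kinases to form ISGF3, a complex containing STAT2 and IRF9 that binds interferon-stimulated response elements (ISREs). IRF3 and IRF7 are activated downstream of nucleic acid sensors and switch on interferon genes, IRF7 being itself an interferon-induced gene that amplifies the loop. IRF1 activates interferon-responsive genes and IRF2 competes for the same sites. STAT3 is the effector of LIF, the cytokine that sustains mouse embryonic stem cells, and of the IL-6 family, and STAT dimers bind gamma-activated sequences (GAS).

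Promoter windows of the members are shown because the level of Irf7, Irf9, Stat2, Irf1 and Irf3 was higher in both V118M libraries than in both WT libraries, and Irf2 is shown beside them as the antagonist with overlapping groups. The sequences are RefSeq windows on GRCm38.p6, from 250 bases before to 50 after a start site, and windows were found for 9 of 9 members; for Irf9 and Irf1, which have 2 each, the upstream one is shown. Capitals mark the ISRE core, GAAANNGAAA, or the GAS motif, TTCNNNGAA, on either strand; these 2 motifs do not overlap each other in the windows shown.
Irf7, chr7:141266375-141266674, minus strand: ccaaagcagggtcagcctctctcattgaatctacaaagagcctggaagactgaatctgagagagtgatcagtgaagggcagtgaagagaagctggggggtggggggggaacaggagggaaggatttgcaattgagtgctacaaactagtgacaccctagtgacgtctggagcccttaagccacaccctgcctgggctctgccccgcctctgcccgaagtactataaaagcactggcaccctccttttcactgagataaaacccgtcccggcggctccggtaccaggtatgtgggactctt
Irf9, chr14:55603735-55604034, plus strand: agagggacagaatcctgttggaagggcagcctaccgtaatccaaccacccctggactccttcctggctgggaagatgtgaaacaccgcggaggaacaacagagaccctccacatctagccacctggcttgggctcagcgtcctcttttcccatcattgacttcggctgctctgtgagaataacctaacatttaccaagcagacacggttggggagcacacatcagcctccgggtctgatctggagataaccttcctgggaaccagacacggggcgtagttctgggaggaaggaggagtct
Stat2, chr10:128270248-128270547, plus strand: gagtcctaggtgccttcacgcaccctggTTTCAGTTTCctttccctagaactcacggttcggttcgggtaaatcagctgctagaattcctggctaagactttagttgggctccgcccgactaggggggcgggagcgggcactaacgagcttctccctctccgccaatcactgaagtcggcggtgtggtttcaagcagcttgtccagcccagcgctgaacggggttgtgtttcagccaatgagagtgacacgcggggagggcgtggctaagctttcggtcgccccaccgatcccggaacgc
Irf1, chr11:53769764-53770063, plus strand: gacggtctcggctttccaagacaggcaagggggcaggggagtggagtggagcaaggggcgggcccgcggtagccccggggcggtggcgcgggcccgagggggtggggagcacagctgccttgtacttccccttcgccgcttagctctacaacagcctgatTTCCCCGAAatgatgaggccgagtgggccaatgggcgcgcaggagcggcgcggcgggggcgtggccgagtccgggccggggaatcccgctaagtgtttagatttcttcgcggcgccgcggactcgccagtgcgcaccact
Irf3, chr7:44997398-44997697, plus strand: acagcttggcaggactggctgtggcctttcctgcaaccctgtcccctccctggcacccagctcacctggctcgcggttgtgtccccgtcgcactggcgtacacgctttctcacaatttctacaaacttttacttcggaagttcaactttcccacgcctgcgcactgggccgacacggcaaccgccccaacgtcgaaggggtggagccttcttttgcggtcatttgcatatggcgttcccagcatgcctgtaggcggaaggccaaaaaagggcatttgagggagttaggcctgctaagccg
Irf2, chr8:46739495-46739794, plus strand: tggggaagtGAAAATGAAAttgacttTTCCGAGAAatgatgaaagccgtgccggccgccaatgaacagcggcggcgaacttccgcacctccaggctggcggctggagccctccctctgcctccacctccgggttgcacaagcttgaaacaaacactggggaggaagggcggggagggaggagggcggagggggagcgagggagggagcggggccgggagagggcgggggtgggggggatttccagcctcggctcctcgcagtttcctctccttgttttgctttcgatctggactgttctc

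Stat2 and Irf2 each held 1 ISRE core, so the motif was in 2 of the 12 windows of the members, against 3.44% of all 32851 windows. In Stat2 it read TTTCAGTTTC on the strand shown and began 222 bases before the start site, and in Irf2 it read GAAAATGAAA and began 241 bases before. The GAS motif was in the windows of Irf1, Irf2 and Irf8, 3 of 12, against 8.3% of all windows. Irf1 held it 90 bases before the start site. The windows of Irf7, Irf9, Irf3, Irf5 and Stat3 held neither set of letters. A match is a run of letters only, and no binding was measured here.

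Among the ISGF3 parts, Irf9, the DNA-binding subunit (ENSMUSG00000002325, chromosome 14, 55603571 to 55610030), had normalized values of 542 and 468 in V118M and 220 and 244 in WT. Both V118M libraries stood above both WT libraries, by 1.92-fold for the closest pair and 2.46-fold for the farthest. The mean was 505 ± 52.3 in V118M and 232 ± 17 in WT (SD, n = 2 each), a log2 fold change of 1.12 (standard error 0.17). Fold changes here are V118M minus WT on the log2(value + 1) scale, which understates those of low genes. The same-strand neighbour whose annotation shares 123 bases with Irf9, Rnf31, was at 294 and 286 in V118M and 290 and 274 in WT, with no such gap.

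Stat2, the STAT that brings the activation domain to ISGF3 (ENSMUSG00000040033, chromosome 10, 128270559 to 128292849), was at 302 and 238 in V118M and 190 and 157 in WT. The groups did not overlap, but the lower V118M library was within 1.25-fold of the higher WT library. Its log2 fold change was 0.63 (standard error 0.21), smaller than that of Irf9. The ratio of Irf9 to Stat2, in values per kilobase of the longest protein-coding transcript, was 2.67 and 2.92 in V118M and 1.72 and 2.31 in WT.

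Irf7, the interferon-induced amplifier of type I interferon (ENSMUSG00000025498, chromosome 7, 141262706 to 141266481, minus strand), had the largest difference of the 9 genes. It was at 254 and 280 in V118M and 48 and 50 in WT. The lower V118M library was 5.08-fold above the higher WT library, and replicates within each group were close, with means of 267 ± 18.4 in V118M and 49 ± 1.41 in WT (SD, n = 2 each). The log2 fold change was 2.42 (standard error 0.20). In its library Irf7 exceeded 63.3% and 64.8% of all genes in V118M and 46% and 46.3% in WT. The opposite-strand gene that shares 45 annotated bases with it, Phrf1, was at 1690 and 1136 in V118M and 1650 and 1600 in WT, so it did not share the pattern of Irf7.

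Irf3, the constitutively made relative of IRF7 that starts the first wave of interferon (ENSMUSG00000003184, chromosome 7, 44997648 to 45002848), was at 447 and 512 in V118M and 378 and 386 in WT. The groups did not overlap, and the difference was small, a log2 fold change of 0.32 (standard error 0.16). Bcl2l12, on the opposite strand with 1065 annotated bases in common, was at 46 and 87 in V118M and 62 and 66 in WT. The ratio of Irf7 to Irf3 in values per kilobase was 0.516 and 0.497 in V118M and 0.115 and 0.118 in WT. Irf7 therefore stood at a larger fraction of the level of Irf3 in both V118M libraries.

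Irf5, which works with MyD88-dependent Toll-like receptors and is best known in macrophages and dendritic cells (chromosome 6, 29526625 to 29541871), was at 42 and 16 in V118M and 36 and 20 in WT. The groups overlapped completely, with the highest and the lowest value both in V118M libraries. The log2 fold change was -0.04 (standard error 0.58). It was -0.71 when V118M replicate 1 was left out and 0.63 when V118M replicate 2 was left out. Tnpo3, on the opposite strand with 1045 annotated bases in common, was at 2178 and 2125 in V118M and 2114 and 2231 in WT, far above Irf5. No source used here says if reads were counted by strand, so reads of genes that overlap on opposite strands cannot be told apart.

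Irf1, the activator of antigen presentation genes and of many antiviral genes (ENSMUSG00000018899, chromosome 11, 53770014 to 53778374), was at 66 and 70 in V118M and at 48 in both WT libraries. The groups did not overlap, by 1.38-fold for the closest pair, and the log2 fold change was 0.49 (standard error 0.24). Irf2, which occupies the same sites and mostly acts as its antagonist (ENSMUSG00000031627, chromosome 8, 46739732 to 46847458), was at 305 and 212 in V118M and 280 and 323 in WT. The groups overlapped, and V118M replicate 2 alone was low. The log2 fold change of Irf2 was -0.24 (standard error 0.23). Leaving out V118M replicate 2 gave 0.02, and leaving out V118M replicate 1 gave -0.50. The ratio of Irf1 to Irf2 in values per kilobase was 0.253 and 0.386 in V118M and 0.2 and 0.174 in WT.

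Irf8, a factor of the myeloid and B cell lineages (chromosome 8, 120736358 to 120756694), was listed at 0 in both V118M libraries and at 1 and 2 in WT. These values are at the bottom of the scale in both groups, so no fold is given. All 20337 bases of Irf8 lie within a longer gene model on the same strand, Gm20388, which was at 471 and 1629 in V118M and 892 and 881 in WT. Reads of Irf8 could have been divided between the 2 models, so its values are uncertain.

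Stat3, the effector of LIF and of the IL-6 family (ENSMUSG00000004040, chromosome 11, 100885098 to 100939540, minus strand), was the highest of the 9 genes, at 3664 and 3402 in V118M and 3665 and 3922 in WT. It exceeded 97.2% or more of all genes in each library. Both V118M values were below both WT values, but V118M replicate 1 and WT replicate 1 differed by a single unit. The log2 fold change was -0.10 (standard error 0.15), and 0.03 when a trend on transcript length was removed from each library. Stat5a, on the opposite strand with 72 annotated bases in common at the 3′ ends, was at 758 and 502 in V118M and 739 and 643 in WT.

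**Figure D1:**
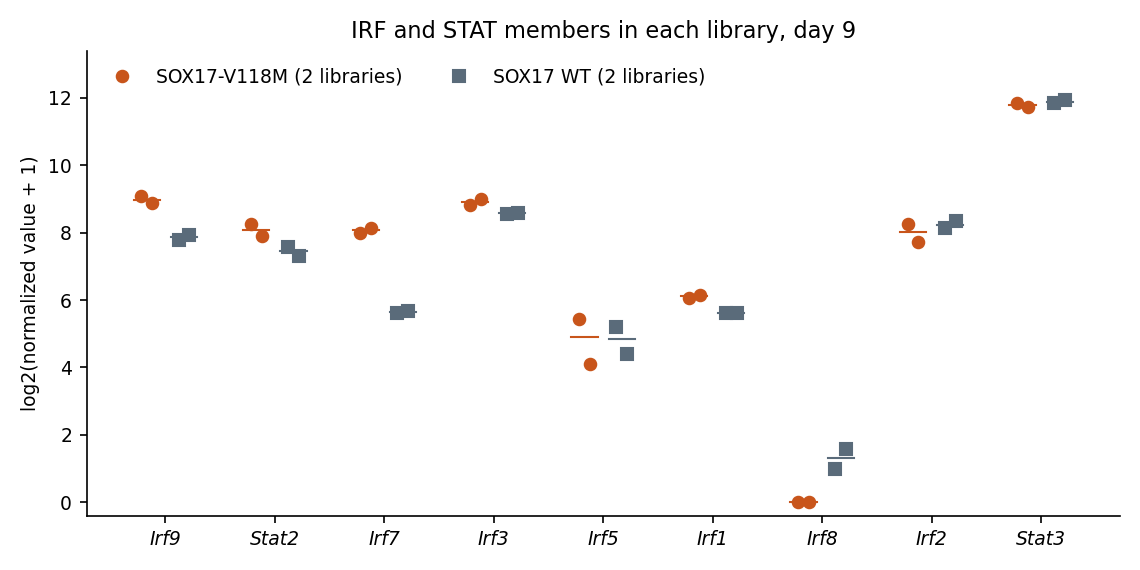
Normalized value of each of the 9 genes in each library, as log2(value + 1), with a point per library and a line at the group mean; V118M (circles) is left of WT (squares) for each gene. Irf7, Irf9, Stat2, Irf3 and Irf1 have both V118M points above both WT points, Irf5 and Irf2 overlap, Irf8 is at or near 0, and the Stat3 points nearly touch.

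Of the 9 genes, 5 had both V118M libraries above both WT libraries, 2 had both below (Irf8 and Stat3) and 2 overlapped. Over all 19547 genes tested 13.2% had both V118M libraries above and 14.8% both below. At an unadjusted p under 0.05 (limma) 2.31% of all genes were higher and 1.7% lower, and 0% passed the adjusted threshold. Because the genes were chosen with this contrast known, nothing is read from their count. A log2 fold change of at least 1 was seen in Irf7 and Irf9, 2 of the 8 genes with a fold, against 3.09% of all genes in that direction. The median log2 fold change of the 8 genes was 0.41, and 0.00 over all genes with a fold. In single libraries the median of all 9, relative to the WT mean, was 0.45 and 0.42 in V118M replicates 1 and 2.

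In values per kilobase, which set genes on a length scale but assume that the authors' unstated normalization treated genes alike, the order in V118M was Stat3 (585), Irf3 (236), Irf9 (171), Irf7 (119), Irf2 (104), Stat2 (61.4), Irf1 (31.8), Irf5 (12.9) and Irf8 (0). In WT it was Stat3 (628), Irf3 (188), Irf2 (121), Irf9 (78.4), Stat2 (39.5), Irf1 (22.5), Irf7 (21.9), Irf5 (12.5) and Irf8 (0.527). In V118M only Irf7 and Irf2 had overlapping ranges as neighbours in the order. In WT no neighbours overlapped, although Irf1, at 22.5 in both libraries, was just above Irf7, at 21.5 and 22.4. Irf7 thus had rank 4 in V118M and rank 7 in WT, while Stat3 and Irf3 led in both. Of the summed values per kilobase of the 7 IRF members and Irf4, 8 genes in all, Irf7 made up 16.3% and 18.7% in V118M and 4.93% and 4.85% in WT. Irf9 made up 26.3% and 23.7% in V118M and 17.1% and 17.9% in WT, and Irf2 17.5% and 12.7% in V118M and 25.8% and 28.1% in WT.

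**Figure D2:**
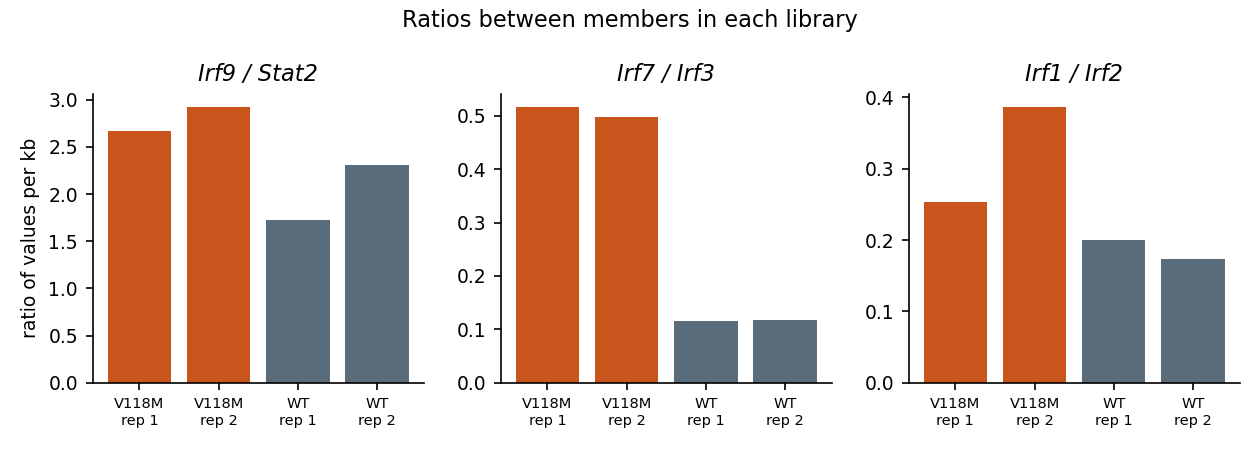
Ratios of values per kilobase of transcript between pairs of members, 1 bar per library, with V118M bars left of WT bars and axes that start at 0. Irf7 over Irf3 is 0.516 and 0.497 in V118M and 0.115 and 0.118 in WT; Irf9 over Stat2 and Irf1 over Irf2 are also higher in both V118M libraries, with smaller gaps.

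Of 5 other IRF and STAT genes examined, Irf4 had both V118M libraries above both WT libraries and Stat4 both below, against 13.2% and 14.8% of all genes. Over all genes 0 of the 5 passed (limma, lowest adjusted p = 0.951). At an unadjusted p under 0.05 (limma) 1 was higher and 1 lower, against 2.31% and 1.7% of all genes. Irf4, a lymphocyte factor, was at 36 and 38 in V118M and 12 and 20 in WT (log2 fold change 1.20, standard error 0.39). Stat4, which relays IL-12 in lymphocytes, was at 4 and 0 in V118M and 12 and 16 in WT, low in every library. Stat6, the IL-4 effector, was at 1255 and 1080 in V118M and 1284 and 1244 in WT, and Stat5b, a growth hormone and cytokine effector, at 624 and 550 in V118M and 614 and 568 in WT. The groups of both overlapped, as did those of Stat5a.

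**Figure D3:**
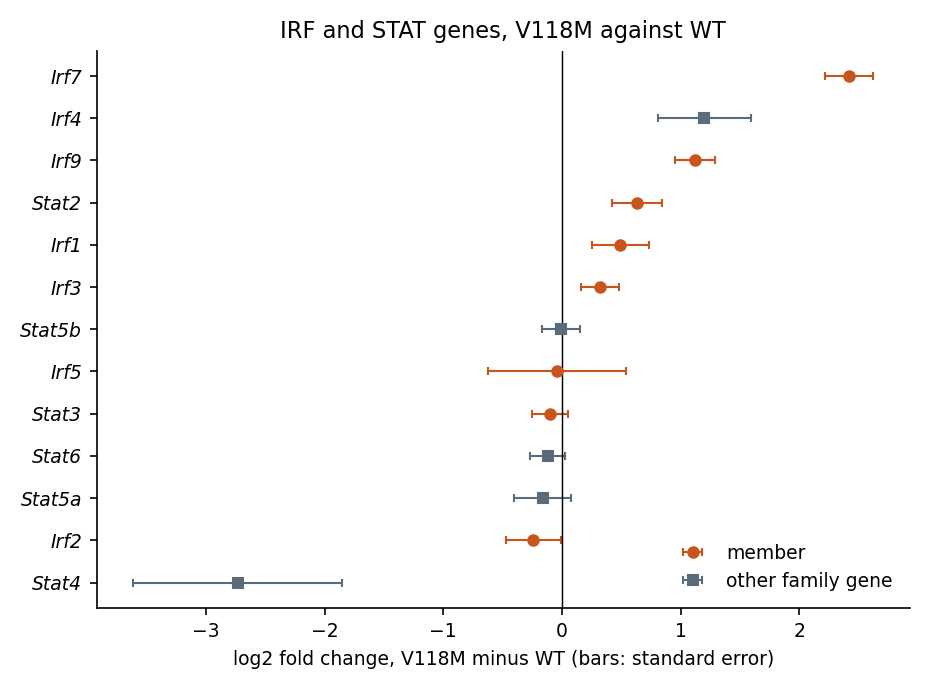
Log2 fold change, V118M minus WT, of 8 members (circles) and 5 other IRF and STAT genes (squares), with standard errors as bars; Irf8 has no fold. Irf7 is farthest to the right at 2.42, followed by Irf4 at 1.20 and Irf9 at 1.12, and Stat4 is farthest to the left with a wide bar.

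The libraries differed in other ways. V118M replicate 2 correlated with the others at 0.954 to 0.964 across 12661 genes, against 0.986 to 0.99 among the other 3. Its deviation from the mean of the 4 libraries was related to length of transcript, with Spearman's rho of -0.581 over 12651 genes, which are not independent, and of 0.106 to 0.489 in the others, whose mean includes it. With that trend removed, a correction chosen after the data were seen, the log2 fold change was 2.36 for Irf7, 1.12 for Irf9, 0.71 for Stat2, 0.42 for Irf1 and 0.24 for Irf3. The 17 fibroblast markers listed were above 0 in all 4 libraries, and their sum was 189580 and 155575 in V118M and 186814 and 187259 in WT. The sum is dominated by its highest genes, and Col3a1 was at 61186 and 29496 in V118M and 61186 in both WT libraries. Col1a2, named after its values were seen, was at 29492 in every library. The values are nearly fixed by rank, so a change of rank among the highest genes can move a value by a large step. The size of the Col3a1 difference is therefore not a measure of its change in expression. The list median relative to the WT mean was 0.06 and 0.15 in V118M, with 11 genes higher and 6 lower. The 14 pluripotency markers summed to 474 and 495 in V118M and 370 and 394 in WT, a low level. Dppa4, named after its values were seen, was at 0 throughout. The median log2 fold change of the 10 with a fold was 0.66, and 0.24 to 0.76 over the alternatives. Of the 11 tested, 6 were higher and 5 lower. The 12 epithelial markers summed to 22781 and 24305 in V118M and 23024 and 24467 in WT.

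Irf5, Irf8, Irf4 and Stat4 are genes of blood cells, and leukocyte markers were present at low levels. The 18 markers in the table summed to 711 and 753 in V118M and 1126 and 937 in WT, and none was at 0 in all libraries. However, 4 and 1 of them were at 0 in the V118M libraries and 0 and 2 in the WT libraries. Aif1 and Cd52, named after their values were seen, were at 4 or below in every library. Itgam was at 366 and 330 in V118M and 251 and 428 in WT, Cd68 at 142 and 110 in V118M and 136 and 206 in WT, and Lyz2 at 38 and 87 in V118M and 193 and 86 in WT. Ptprc, which encodes CD45, was named after its values were seen and had the most negative log2 fold change of the 18, at 30 and 0 in V118M and 165 and 58 in WT. Of the 18 markers 15 overlapped between groups, 3 had both V118M libraries below and 0 both above, against 14.8% and 13.2% of all genes. By sign of the log2 fold change 15 were lower and 2 higher, against 9586 and 9739 of the 19547 genes tested. The list median was -0.45, and it was -0.05 without V118M replicate 1 and -1.33 without WT replicate 2. Of the blood cell factors, Irf8 and Stat4 were lower in both V118M libraries, Irf4 was higher in both and Irf5 overlapped. Irf8 was at 2 or below and Stat4 at 16 or below in every library, so their directions rest on low values. The part of the markers in the values of these 4 genes was not tested. In bulk RNA fewer cells of a type and less RNA per cell cannot be told apart.

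Signals upstream of the 9 genes were examined next, from lists chosen with earlier results of these data known. Of 9 interferon and interferon receptor genes, 0 passed over all genes (limma, lowest adjusted p = 0.951; 0 also at an unadjusted p under 0.05), and the median log2 fold change was -0.03. Ifnb1, Ifna2, Ifng, Ifnar1 and Ifnar2 were named after their values were seen. Ifnb1, the interferon beta gene, was at 1 and 2 in V118M and 1 and 1 in WT, at the bottom of the scale. Ifna2 was at 1 in every library. Ifng, the interferon gamma gene, was at 0 and 19 in V118M and 0 and 3 in WT, so its groups overlapped. Its log2 fold change of 1.16 (standard error 1.58) rests on V118M replicate 2. Ifnar1 was at 712 and 538 in V118M and 718 and 738 in WT, and Ifnar2, the other chain of the type I receptor, at 508 and 620 in V118M and 521 and 627 in WT. The 3 smallest p-values of this list were those of Il10rb (242 and 202 in V118M, 278 and 322 in WT), Ifnlr1 (16 and 19 in V118M, 32 and 27 in WT) and Ifngr2 (206 and 281 in V118M, 174 and 192 in WT). Ifngr2 was thus higher in both V118M libraries and the 2 chains for the type III receptor lower in both.

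Of 11 tested JAK kinase, LIF and IL-6 family genes 0 passed (limma, lowest adjusted p = 0.951), and the median was -0.06. Only 1 was higher at an unadjusted p under 0.05 (limma), against 2.31% of all genes. That gene was Il6, an activating cytokine of STAT3, at 26 and 36 in V118M and 13 and 12 in WT. Jak3 was at 200 and 174 in V118M and 210 and 238 in WT, and Jak1, which serves both interferon and LIF receptors, at 3804 and 3059 in V118M and 3989 and 3958 in WT. The LIF receptor gene Lifr, named after its values were seen, was at 236 and 206 in V118M and 181 and 202 in WT.

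Of 20 tested sensor, adaptor and kinase genes that lie upstream of IRF3, IRF5 and IRF7, 0 passed (limma, lowest adjusted p = 0.694), and the median was -0.04. Among them 4 were higher at an unadjusted p under 0.05 (limma), against 2.31% of all genes. The 3 smallest p-values belonged to the RNA sensors of the RIG-I family. Dhx58, which encodes LGP2, was at 84 and 100 in V118M and 24 and 33 in WT (log2 fold change 1.67). Ddx58, which encodes RIG-I, was at 527 and 434 in V118M and 314 and 317 in WT. Ifih1, which encodes MDA5, was at 302 and 325 in V118M and 202 and 219 in WT. The other gene was Ticam2, a Toll-like receptor adaptor named after its values were seen, at 7 and 12 in V118M and 3 and 1 in WT. The RIG-I family sensors are themselves interferon-induced genes. Other adaptors and kinases, named after their values were seen, differed in direction. The adaptor gene Myd88 was at 337 and 444 in V118M and 289 and 322 in WT, and Ticam1 at 192 and 95 in V118M and 167 and 195 in WT. The kinase gene Tbk1 was at 768 and 786 in V118M and 835 and 894 in WT, and the adaptor gene Mavs at 1094 and 1022 in V118M and 1100 and 1114 in WT. Myd88 was thus higher in both V118M libraries, Tbk1 and Mavs were lower in both, and Ticam1 overlapped.

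Genes known to be induced downstream were examined by factor. Of 40 tested genes of the ISGF3-type list 37 had a positive and 3 a negative log2 fold change, with a median of 1.04. Both V118M libraries were above both WT libraries in 30 and below in 0, against 13.2% and 14.8% of all genes. In this list 0 passed over all genes (limma, lowest adjusted p = 0.269), where the share passing among all genes was 0%, and 27 were higher at an unadjusted p under 0.05, against 2.31% of all genes in that direction. Oas2, which makes the activator of RNase L, was at 310 and 230 in V118M and 38 and 28 in WT (log2 fold change 2.99). Oasl2 was at 184 and 172 in V118M and 32 and 25 in WT, and Ifi44 at 308 and 351 in V118M and 112 and 100 in WT. The 3 negative values, named after they were seen, were those of Epsti1, Phf11b and Isg20, and Epsti1 and Phf11b were at 8 or below in every library. The list's promoters held the ISRE core in 17 of 38 windows, of 32 genes matched, against 3.44% of all windows. They held the GAS motif in 7 of 38, against 8.3% of all windows. Not every listed gene stood apart: Ifit2, Mx1 and Cxcl10, named after their values were seen, overlapped between groups, with log2 fold changes of 0.14, 0.17 and 0.22.

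Of 24 tested genes of the IRF1-type list, which holds antigen presentation genes and guanylate-binding and immunity-related GTPases, 20 had a positive and 4 a negative log2 fold change, with a median of 0.48. Both V118M libraries were above in 13 and below in 1, against 13.2% and 14.8% of all genes. None passed over all genes (0 by limma, lowest adjusted p = 0.589). In this list 5 were higher and 1 lower at an unadjusted p under 0.05 (limma), against 2.31% and 1.7% of all genes. The median relative to WT was 0.32 in V118M replicate 1 and 0.75 in V118M replicate 2, so the list median without V118M replicate 2 was 0.32. The 3 smallest p-values were those of the GTPase genes Irgm1 (222 and 256 in V118M, 108 and 91 in WT), Irgm2 (58 and 44 in V118M, 24 and 18 in WT) and Igtp (66 and 108 in V118M, 42 and 26 in WT). The other higher genes were Iigp1 and the immunoproteasome subunit Psmb8, and the lower gene was Casp1, at 8 and 0 in V118M and 18 and 48 in WT, all named after their values were seen. Class I genes were also named after their values were seen. B2m, the class I light chain, was at 1862 and 2519 in V118M and 1265 and 1711 in WT (log2 fold change 0.56). The heavy chain genes H2-K1 and H2-D1 had log2 fold changes of 0.21 and 0.10, with H2-K1 at 1477 and 1768 in V118M and 1379 and 1410 in WT. Tapbp, the peptide-loading gene, was at 2115 and 2466 in V118M and 2168 and 2298 in WT. The promoters of this list held the ISRE core in 7 of 20 windows, against 3.44% of all windows, and the GAS motif in 4 of 20, against 8.3%.

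Of 20 tested STAT3-induced genes 12 had a positive and 8 a negative log2 fold change, with a median of 0.14 that ranged from 0.01 to 0.23 over the alternatives. Both V118M libraries were above in 9 and below in 1, against 13.2% and 14.8% of all genes. The adjusted threshold was passed by 0 (limma, lowest adjusted p = 0.631). At an unadjusted p under 0.05 (limma) 3 were higher, against 2.31% of all genes. The acute-phase genes Saa3 (104 and 168 in V118M, 24 and 36 in WT) and Lcn2 (50 and 64 in V118M, 8 and 14 in WT) and the NF-kB partner Bcl3 (196 and 148 in V118M, 97 and 103 in WT) had the smallest p-values. Socs3, the feedback inhibitor that STAT3 induces, was named after its values were seen. It was at 888 and 922 in V118M and 742 and 764 in WT, a log2 fold change of 0.26. Pim1, another STAT3-induced gene named after its values were seen, was at 458 and 442 in V118M and 446 and 451 in WT.

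Of 21 tested inhibitors of JAK-STAT and IRF signalling 10 had a positive and 11 a negative log2 fold change, and their median was -0.01. The adjusted threshold was passed by 0 (limma, lowest adjusted p = 0.804). Of the 21 genes, 2 were higher at an unadjusted p under 0.05 (limma), against 2.31% of all genes. Usp18, the inhibitor at the interferon receptor that is itself interferon-induced and also stands in the ISGF3-type list, was at 66 and 99 in V118M and 25 and 17 in WT. Socs1, which blocks JAK kinases, was at 52 and 79 in V118M and 32 and 24 in WT. Ptpn6, the phosphatase SHP-1 of blood cells, was at 58 and 52 in V118M and 82 and 79 in WT. Pias3, an inhibitor of STAT3 named after its values were seen, was at 491 and 412 in V118M and 602 and 563 in WT.

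**Figure D4:**
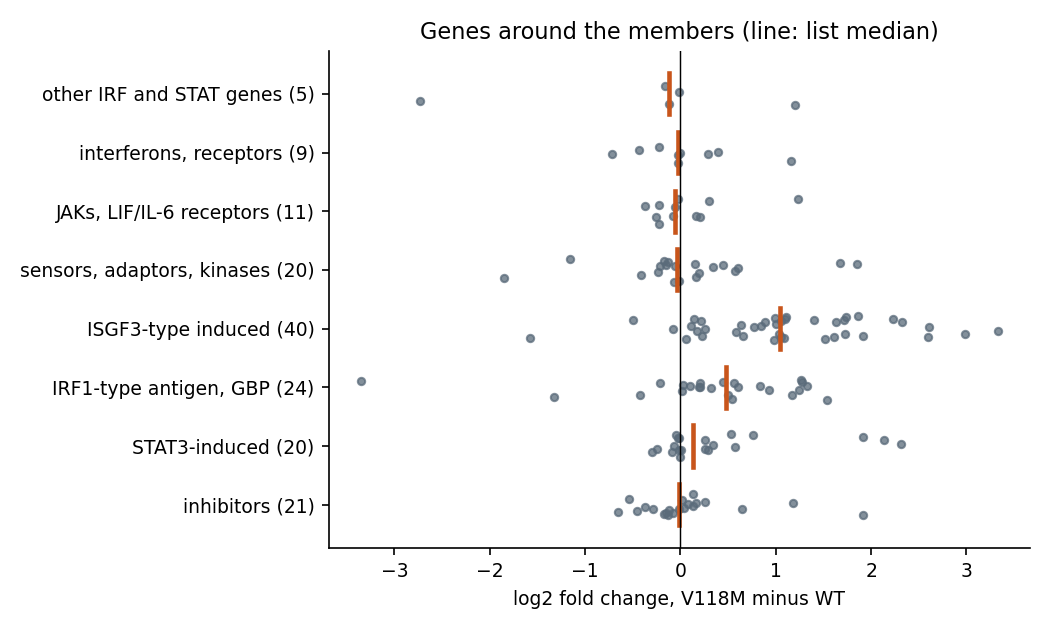
Log2 fold change, V118M minus WT, of each tested gene (points) in the 8 lists around the members, with the number of genes in brackets and the list median as a line. The ISGF3-type list has a median of 1.04 and the IRF1-type list 0.48, while the other medians lie between -0.12 and 0.14.

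Genes of most similar pattern were found by the Euclidean distance, over the 4 libraries, between log2(value + 1) profiles centred on the WT mean, among genes with a mean value of at least 30. Nearest to Irf7 were the complement genes Cfb (172 and 214 in V118M, 32 and 36 in WT; distance 0.157) and C4b (1161 and 992 in V118M, 184 and 204 in WT; distance 0.274), and then Oasl2 (distance 0.425). Few profiles were close to Irf7, with 4 of 12839 genes within a distance of 0.5. Nearest to Irf9 were Oasl1 (168 and 152 in V118M, 76 and 80 in WT; distance 0.147), Lgals3bp (1148 and 900 in V118M, 482 and 466 in WT; distance 0.173) and Apba2 (distance 0.185), with 45 genes within 0.5. Nearest to Stat2 were Susd2, Katnal2 and Mmp10 at distances of 0.0753 to 0.101, with 294 genes within 0.5.

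For the members with smaller differences the nearest profile is one of many. Irf1 had 1808 genes within 0.5 and was nearest to Neil3, Serpina3n and AW551984, Irf3 had 5009 and was nearest to Csta1, E130311K13Rik and Fam110b, Irf2 had 4625 and was nearest to S1pr1, Cdk18 and Plk3, and Stat3 had 7465 and was nearest to Vps41, Pnpla3 and Caprin2. Irf5 had 76 and was nearest to Foxred2, Zfp518b and Rnf213, of which Rnf213 was at 1495 and 622 in V118M and 1200 and 878 in WT, with replicate 1 above replicate 2 in both groups as for Irf5. Irf8 had 0 within 0.5, the nearest being Gm37115, Mlip and Oit1 at 0.536 to 0.546. These likenesses rest on 4 libraries and describe them only.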

How the data were processed

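The deposited table gives, per the labels' titles and the column names, a score for each gene in each of the 4 libraries. The scores are whole numbers but not counts: sorted values were equal in all 4 libraries at 76.7% of ranks, and totals ran from 12855482 to 12859613. How they were normalized is not given here by any label, and depth is unknown. FastQC, Bowtie2, RSEM, DESeq2 and build mm10 are named, with no role, in the submitters' processing notes. GENCODE M21 (GRCm38) gave coordinates (1-based) and lengths; 22272 of 22369 entries matched by transcript and gene ID, 96.0% with starts within 1 base.

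Genes at 1 or more in at least 2 libraries were kept (19547), transformed as log2(value + 1) and fitted with limma 3.58.1 (R 4.3.3, trend and robust options, group as the only term), with two-sided p-values adjusted by Benjamini-Hochberg across the genes kept. On simulated data with 200 changed genes among 19547, 29% of 4-fold and 49.1% of 8-fold but 0.161% of 2-fold changes were called. Named genes are the 9 members, 5 other IRF and STAT genes (some genes are not reported here), the 3 smallest p of each pathway list, the 3 highest markers, the 3 nearest profiles and genes whose annotation overlaps a member; others are said to be named after their values were seen. Members and lists were chosen with earlier results of these data known. The p-values measure the spread between these libraries, which may be technical. Alternatives were pseudocounts of 0.1 and 5, no filter, a filter of 10, a replicate block, plain empirical Bayes, each library left out and a removed length trend.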

Additional observations from a re-analysis of the deposited data

How the results depend on the processing

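Over the 11 alternatives the log2 fold change ran from 2.33 to 2.49 for Irf7 and from 1.01 to 1.22 for Irf9. It ran from 0.46 to 0.80 for Stat2, from 0.42 to 0.54 for Irf1 and from 0.23 to 0.42 for Irf3. The groups of these genes did not overlap, so another pseudocount or a library left out could not change a sign. The filters, the block and plain empirical Bayes leave a fold change as it was. Only the removed length trend could have changed a sign, and it did not. Stat3 turned to 0.03 with the length trend removed; Irf2 and Irf5 changed sign under 1 and 2 alternatives. The median of the 8 members was 0.33 with the length trend removed and 0.42 to 0.54 with a library left out. Genes at an unadjusted p under 0.05 numbered 451 higher and 333 lower. They were 716 and 725 with no filter. With a filter of 10 the lower genes were 202. With a library left out they ran from 178 (without WT replicate 1) to 2666 (without V118M replicate 1) higher and from 43 (without WT replicate 1) to 2430 (without V118M replicate 1) lower. Without V118M replicate 2 they were 882 and 1401, and without WT replicate 2 they were 213 and 56. The cause was not tested.

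With the replicate number as a block, 3 genes passed an adjusted p of 0.05 over all genes (limma), Oas2, C4b and Ifi27l2a, with 616 higher and 588 lower at an unadjusted p under 0.05; the members' fold changes were the same as without the block. The labels do not say that the numbers pair the samples; deviations of same-numbered libraries correlated at 0.303 across 12661 genes. Under the other alternatives 0 genes passed. Depth is unknown, and 2 libraries a group limit the precision.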
